A study of Mus musculus with 8 samples.

Results

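The 10 genes described here are the Notch receptors Notch1, Notch2, Notch3 and Notch4, the ligands Dll1, Dll3, Jag1 and Jag2, and the target genes Hes1 and Hes5, out of 22180 genes with a value. They were chosen by name as a signalling pathway, and each was read from the probe set with the highest mean over all tumours among those annotated to that symbol only. RNA was measured in 8 tumours, 1 array each, which form 1 group with no normal tissue or untransduced cells analysed here. The tumours grew under the skin of nude or C57Bl/6 mice from primary neural crest cells that had been infected with N-Myc, a mixture of p53+/- and p53-/- cells. About 10000 cells were injected 48 hours after infection, and the primary tumours were removed after about 50 days. The labels do not give the host or the p53 genotype of each tumour, or the promoter that drove N-Myc, and say nothing of separate animals or cultures, so the p-values below measure only the spread between these samples.

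Notch signalling passes between touching cells. A ligand on one cell, of the Delta-like or Jagged kind, pulls on a Notch receptor of its neighbour, the receptor is cut first by ADAM proteases and then by gamma-secretase, and the freed intracellular domain enters the nucleus, where with the DNA-binding protein Rbpj and a Mastermind co-activator it switches on repressors of the Hes and Hey families. In the neural crest the pathway holds cells as progenitors or turns them toward glia, since Hes proteins repress the proneural factors that start neuronal differentiation. In other tissues of a tumour it is known for its part in blood vessels, with Notch1, Notch4 and Dll4 in endothelium and Notch3 in the mural cells around it.

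All values are log2 expression levels. The array background was set as the 95th percentile of 1440 probe sets of chemosensory receptor genes (olfactory, vomeronasal and bitter taste) and lay between 5.45 and 5.66. As a check of the labelled tissue, 8 of 8 measured sympathetic markers were above background, among them Th (10.05 ± 0.91, SD, n = 8) and Hand2 (10.57 ± 0.35), although tumour 6 was lowest for 7 of the 8, with Dbh at 5.72 and Ddc at 5.61. The centred mean of the 8 was -1.68 in tumour 6, against -0.31 to 0.76 elsewhere, and that of 8 neuronal markers was -0.50, with 5 of 8 lowest there. The part of this in the tumour 6 levels of Notch2, Jag1, Dll3 and other genes below was not tested. Tumours 4 and 6 stood apart from the rest in the glial and crest progenitor markers, of which 6 of 8 measured were above background. The mean of their levels, each centred on its own mean, reached 1.78 (tumour 4) and 1.44 (tumour 6), and the remaining tumours lay between -0.91 and -0.09. The tumours are mixtures of cells, in which fewer cells of a type and less RNA per cell cannot be told apart.

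The 4 receptors, Dll1, both Jagged ligands and Hes5 were detected in the tumours, whereas Dll3 and Hes1 did not pass the detection test. Of the 10 genes, 8 were called above the array background (limma, adjusted p under 0.05), beside 57.3% of all genes tested. The smallest margin among the 8 was that of Dll1, 0.72 above background (limma, SE 0.08, adjusted p = 3.53e-06), and the largest that of Jag2, 4.02 above (SE 0.10, adjusted p = 7.05e-13). The count depends on where the background is set, since 10 were called against the 90th percentile of the chemosensory probe sets and 5 against the 99th.

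**Figure D1:**
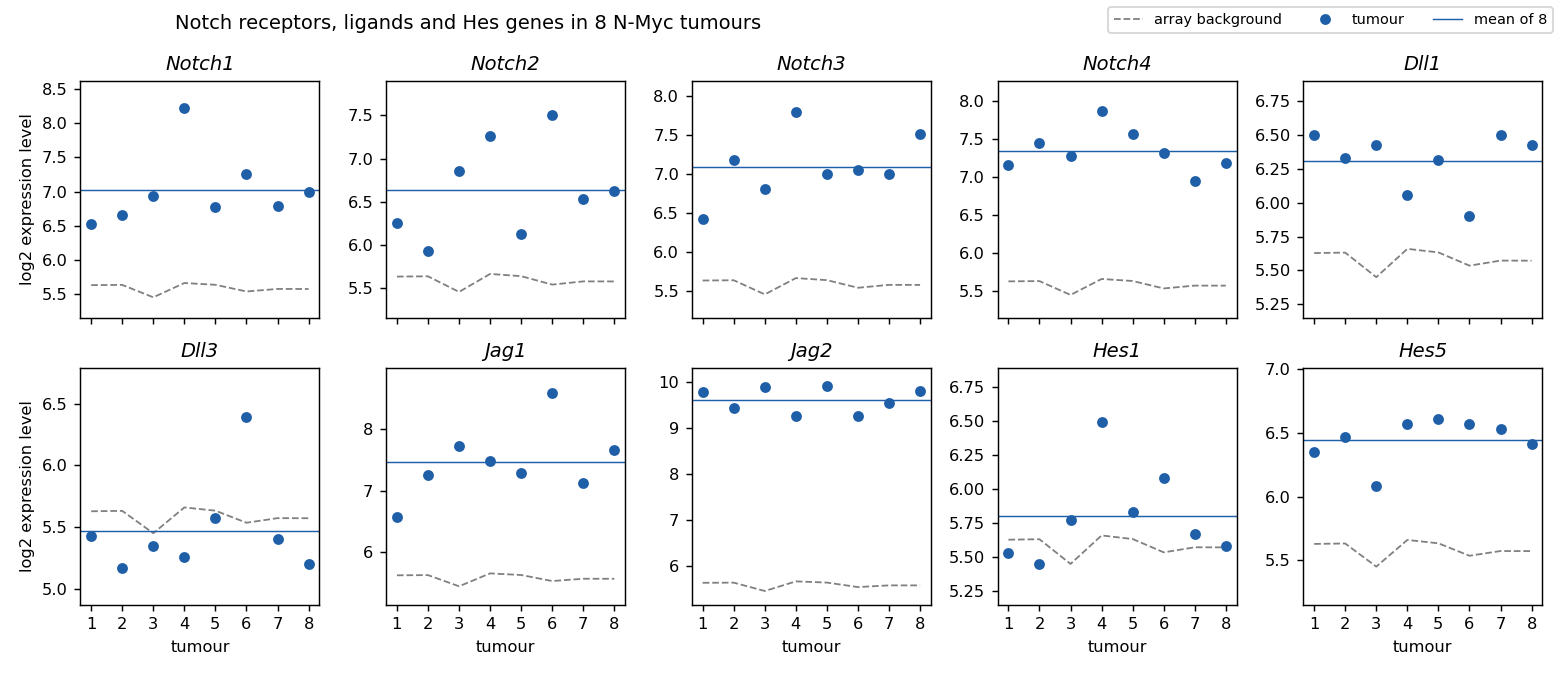
Log2 expression level (y axis, a separate scale for each gene) of the 10 genes in tumours 1 to 8 (x axis). Points are tumours, the solid line is the mean of the 8 and the dashed line the background of each array. Notch1 has its highest point in tumour 4 (8.22), Jag1 and Dll3 have theirs in tumour 6, and Dll3 lies below the dashed line in the other 7 tumours.

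All 4 receptors were above background on every array. Notch1, a receptor of neural and vascular development, had its lowest level of 6.53 in tumour 1, a median of 6.87 and its highest level of 8.22 in tumour 4 (mean 7.02 ± 0.53, SD, n = 8; 1.44 above background, limma adjusted p = 3.25e-06). Tumour 4 lay 1.37 above the mean of the other 7, which were at 6.85 ± 0.24 (SD, n = 7), and tumour 6 followed at 7.26. Tumour 4 thus carried much of the spread of Notch1.

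Notch2, which acts beside Notch1 in many progenitors, ran from 5.92 in tumour 2 through a median of 6.58 to 7.50 in tumour 6 (mean 6.63 ± 0.55, SD, n = 8; 1.05 above background, limma adjusted p = 0.000151). Against the 99th percentile background the margin was 0.04 (limma adjusted p = 0.842). Tumour 4 was next at 7.26, and tumours 6 and 4 thus held the highest pair of values, as they did for Notch1. Notch3, the receptor of pericytes and vascular smooth muscle, ran from 6.42 in tumour 1 through a median of 7.03 to 7.79 in tumour 4 (mean 7.09 ± 0.42, SD, n = 8; 1.51 above background, limma adjusted p = 1.60e-07). Here tumour 8 was second at 7.51 and tumour 6 was close to the median.

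Notch4, a receptor of endothelium, was the receptor that varied least, from 6.95 in tumour 7 through a median of 7.29 to 7.86 in tumour 4 (mean 7.34 ± 0.28, SD, n = 8; 1.76 above background, limma adjusted p = 1.30e-09). Of the 8 detected members, 3, all of them receptors, had their highest level in tumour 4, beside 13.3% of all genes above background, and 2, Notch2 and Jag1, in tumour 6, beside 18.3%. Either tumour was highest for 5 of 8 members, beside 31.6% of all genes above background. Tumour 1 was lowest for 3 of 8, Notch1, Notch3 and Jag1, beside 14.4%. Averaged after centring, the 4 receptors reached 0.76 (tumour 4) and 0.26 (tumour 6), and lay between -0.43 and 0.05 elsewhere.

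The ligands differed among themselves in which tumour was high. Jag1, a ligand of vessel walls and many epithelia, varied most of the 10 genes, from 6.58 in tumour 1 through a median of 7.38 to 8.59 in tumour 6 (mean 7.46 ± 0.58, SD, n = 8; 1.87 above background, limma adjusted p = 1.78e-06). Tumour 6 was 4.01 times tumour 1 on the linear scale and lay 1.29 above the mean of the other 7. Without tumour 6 the SD was 0.38. The 5 detected skeletal muscle markers were high in the same tumour, with centred means of 1.34 (tumour 6), 1.02 (tumour 8) and 0.91 (tumour 3), and the remaining tumours lay between -1.03 and 0.17. Jag1 was above its median in these 3 tumours and also in tumour 4, which had the lowest muscle mean of -1.03. The part of muscle in the level of Jag1 was not tested.

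Jag2, the other Jagged ligand, was far above background in every tumour, from 9.25 in tumour 4 through a median of 9.66 to 9.90 in tumour 5 (mean 9.61 ± 0.27, SD, n = 8). Its lowest values were in tumours 4 and 6, at 9.25 and 9.26. Dll1, the Delta ligand of neuronal progenitors, ran from 5.90 in tumour 6 through a median of 6.38 to 6.5 in tumour 7 (mean 6.31 ± 0.22, SD, n = 8). Its lowest pair was again tumours 6 and 4 (6.06 in tumour 4), so that Dll1 and Jag2 were lowest in the tumours where Notch1 and Notch2 were highest. This order was noticed in the values and is a description. The share of all genes that were lowest in this pair of tumours was not counted. In the pair tests described below, r of these ligands with Notch1 or Notch2 ran from -0.71 to -0.35 (exact permutation, adjusted p from 0.224 to 0.5). The pairs with Notch1 left out tumour 4 (n = 7), so they say nothing of its high Notch1 value. Without the 2 tumours farthest in the receptor, r ran from 0.47 to 0.71. A second probe set annotated to Dll1, with a lower mean of 5.67, exceeded the background in 5 of 8 tumours, with its minimum in tumour 6 (5.09) and its maximum in tumour 2 (6.02). Of its 20 nearest neighbours in probe set number 0 lie on the strand of Dll1, so what it reads is uncertain. Its r with the chosen one was 0.60 (exact permutation p = 0.107; rho 0.26, p = 0.536).

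Dll3, a divergent Delta ligand that acts inside the cell against signalling and is expressed in human neuroendocrine tumours, was below background in 7 of 8 tumours. Tumour 6 had a level of 6.39, and the other 7 averaged 5.34 ± 0.14 (SD, n = 7). The overall mean of 5.47 was not above background (-0.12, limma adjusted p = 0.395). Tumour 6 alone lay above its array's background, by more than the range of the other 7, whose levels ran from 5.17 to 5.57.

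Hes1, the best known direct target, was close to background. Its level ran from 5.45 in tumour 2 through a median of 5.72 to 6.49 in tumour 4, with tumour 6 next at 6.08 (mean 5.80 ± 0.34, SD, n = 8). It exceeded the array's background in 6 of 8 tumours and missed the threshold overall (0.22 above background, limma adjusted p = 0.0696). Leaving out tumour 1 or tumour 2 brought it past the threshold (0.26 and 0.27 above background, limma adjusted p = 0.0451 and 0.0321). Leaving out any other tumour did not, and the margin was smallest without tumour 4 (0.13) or tumour 6 (0.17). Without tumours 4 and 6 together it was 0.06, so much of the margin rested on them. Hes1 lay below the 99th percentile background (-0.79) and above the 90th (0.83).

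Hes5, a target in neural progenitors, is annotated to a pair of probe sets that gave different patterns. The probe set with the highest mean (6.449) hardly varied, from 6.08 in tumour 3 through a median of 6.5 to 6.61 in tumour 5 (mean 6.45 ± 0.17, SD, n = 8; 0.86 above background, limma adjusted p = 5.29e-08). The other, whose mean of 6.441 was only just lower, was at 7.62 in tumour 4 and from 5.97 in tumour 6 to 6.67 in tumour 5 among the rest (SD 0.53). Over the 8 tumours their Pearson's r was 0.26 (exact permutation, two-sided, p = 0.475) and their Spearman's rho 0.24 (p = 0.582).

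The strand that each probe set reads was not given in the sources used here, but their neighbours differ. RefSeq places Hes5 on the plus strand of chromosome 4. Of the 20 named single probe set genes nearest in probe set number, all 20 were plus-strand genes of that chromosome for the other probe set, and 0 of 20 for the chosen one, whose neighbours were all on its minus strand. Among the 9 members with a strand in the promoter table, the chosen probe set of Hes5 was the only one with this result, and the other 8 had 20 of 20 neighbours on the strand of their gene. Levels of Hes5 are therefore given from both probe sets.

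**Figure D2:**
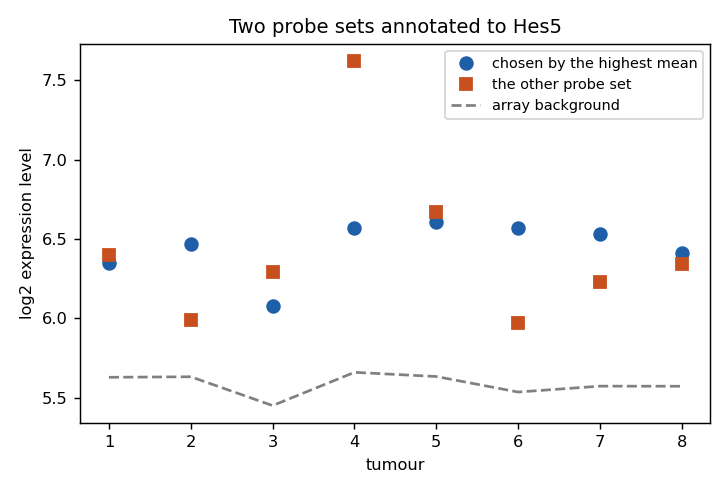
Log2 expression level (y axis) of both probe sets annotated to Hes5 in tumours 1 to 8 (x axis), with the array background as a dashed line. The chosen probe set (circles) stays between 6.08 and 6.61, and the other (squares) has its highest point, 7.62, in tumour 4.

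The promoters of these genes were searched for GTGGGAA, the motif bound by Rbpj, on both strands of the 300 bases from 250 before to 50 after each start (RefSeq, GRCm38.p6). The members had 1 gene with a match out of 9 with a promoter in the table, namely Hes5, and 6.38% of all 32851 promoters held one. Hes1 had no promoter in the table and was not searched. Hes5 had 2 matches, as did Hey2, a related Hey repressor outside the 10 genes, and 0.256% of all promoters held 2 or more. Of 5 other genes searched 2 had a match, Hey2 and Hes7 (1 match), and Hes6, Nrarp and Dll4 had 0. Hey1, Heyl and Mfng had no promoter in the table and were not searched either. Hes5 and Hey2 are shown with the matches in capitals, in either orientation. Notch1, the receptor that stood out in tumour 4, is shown as a promoter without one. The windows are chr4:154960673-154960972 on the plus strand for Hes5, chr10:30842734-30843033 on the minus strand for Hey2 and chr2:26503773-26504072 on the minus strand for Notch1, each written 5′ to 3′ along the gene.
Hes5: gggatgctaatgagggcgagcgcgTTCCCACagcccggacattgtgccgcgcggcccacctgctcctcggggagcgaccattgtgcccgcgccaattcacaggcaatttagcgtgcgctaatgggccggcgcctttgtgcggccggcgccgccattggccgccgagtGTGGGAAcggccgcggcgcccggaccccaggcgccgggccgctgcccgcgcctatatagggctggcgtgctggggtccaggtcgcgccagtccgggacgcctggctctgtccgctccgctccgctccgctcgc
Hey2: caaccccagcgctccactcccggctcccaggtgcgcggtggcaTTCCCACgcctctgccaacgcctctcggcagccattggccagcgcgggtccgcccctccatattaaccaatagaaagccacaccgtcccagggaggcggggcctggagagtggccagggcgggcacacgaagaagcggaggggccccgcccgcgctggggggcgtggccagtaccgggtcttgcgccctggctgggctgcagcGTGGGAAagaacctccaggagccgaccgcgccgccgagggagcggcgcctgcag
Notch1: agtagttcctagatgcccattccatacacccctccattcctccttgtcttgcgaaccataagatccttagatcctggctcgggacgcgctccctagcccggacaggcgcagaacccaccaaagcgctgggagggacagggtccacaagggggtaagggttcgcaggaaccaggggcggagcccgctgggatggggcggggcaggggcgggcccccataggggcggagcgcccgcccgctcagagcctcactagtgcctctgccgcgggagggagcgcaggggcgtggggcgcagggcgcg
In Hes5 the matches begin 226 and 83 bases before the start, and in Hey2 207 and 4 bases before it. In each gene the match farther from the start is in reverse orientation. CACGTG, the E-box that Myc proteins bind, occurred in 0 of the 9 promoters of members and in 7.15% of all promoters. A match is a run of letters in this window and no measure of binding.

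By size alone, 4 of the 8 detected members, Notch1, Notch2, Notch3 and Jag1, had an SD over the tumours above 0.41, the 99th percentile of the SDs of the chemosensory receptor probe sets, beside 14.6% of all genes above background. The median SD of the 8 was 0.35, and that of all genes above background 0.23. With 1 array per tumour, differences between tumours cannot be told apart from technical differences between arrays. The count was 2 without tumour 4 and 0 without tumours 4 and 6 together, a pair left out because it held the highest values. Without these tumours the SD of Jag1 was 0.41, at the limit. Notch3 did not pass without tumour 1 (0.34), tumour 4 (0.33) or tumour 8 (0.41) either, so the calls rested on several tumours. All 4 genes had their highest level in tumour 4 or 6, beside 38.7% of all genes above background past the limit. With the other probe set of Hes5 in place of the chosen one the count was 5.

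The rest of the pathway was largely expressed. Of 65 further pathway genes listed, 60 had a value and 55 of these were above background, beside 57.3% of all genes tested. All 9 measured genes of receptor cleavage, all 8 of the nuclear complex and all 8 measured co-repressors were detected. So were all 5 glycosylation enzymes, all 6 genes of ligand endocytosis and all 9 measured genes of inhibition and turnover. The remaining 5, Hes2, Hes3, Neurog1, Neurog3 and Atoh1, were not above background. Rbpj was read from a probe set whose 20 nearest neighbours in number lie on another chromosome (0 of 20 on that of Rbpj), and so was Aph1a, a gamma-secretase subunit, so both are uncertain.

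Several known targets of Notch had their highest level in tumour 4 as well. Hey2, a repressor of arterial endothelium and heart, reached 10.15 (tumour 4) and 8.10 (tumour 6) while the remaining tumours ranged over 5.81 to 6.72 (mean 6.93 ± 1.49, SD, n = 8). Tumour 4 was 12.8 times the geometric mean of the other 7. Heyl, a target of Notch3 in mural cells, reached 8.73 (tumour 4) and 8.02 (tumour 6) and ranged over 6.26 to 7.12 elsewhere (mean 7.23 ± 0.78).

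Hey1, another Hey repressor, reached 9.0 (tumour 4) and 8.51 (tumour 6), and its mean was 8.12 ± 0.44 (SD, n = 8). Nrarp, a target that feeds back to damp Notch, was at 8.35 and 7.95 in these tumours and lowest in tumour 7 (6.24). Hes6, which acts against Hes1, kept to a narrow range of 6.74 to 7.34, again with tumour 4 highest and tumour 6 second.

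Tumours 4 and 6 held the highest pair of values for 4 of the 5 detected Hes and Hey genes outside the members, and for 11 of the 55 detected pathway genes, beside 8.87% of all genes above background. Among the members it was 2 of 8, Notch1 and Notch2. This order was noticed in the values and is a description.

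**Figure D3:**
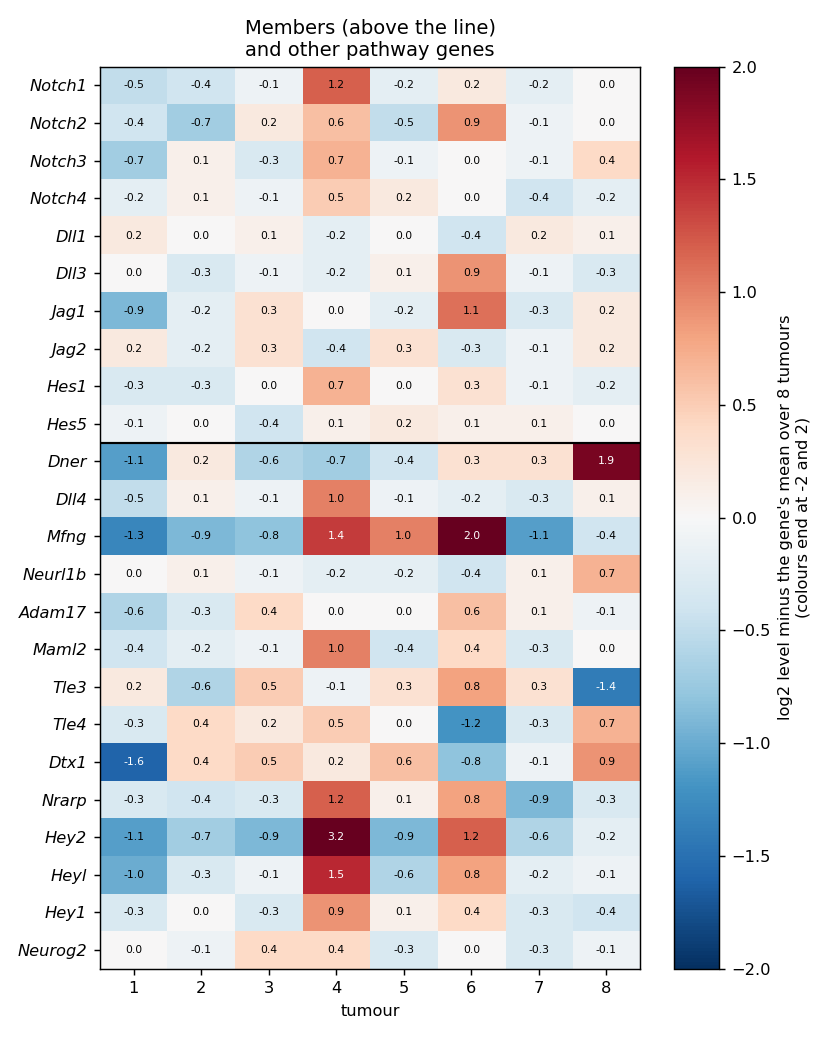
Log2 level minus the gene's mean over the 8 tumours (colour and printed value) for the 10 members above the line and 14 other pathway genes below it, by tumour (columns). Tumour 4 is red for Notch1, Dll4, Maml2, Nrarp, Hey2, Heyl and Hey1, and Mfng is high in tumours 4, 5 and 6.

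Other arms of the pathway varied too. Mfng, the Manic fringe enzyme that adds sugars to Notch and shifts its choice of ligand, reached 9.48 (tumour 6), 8.94 (tumour 4) and 8.47 (tumour 5), and the remaining tumours ranged over 6.21 to 7.13. Maml2, a Mastermind co-activator, reached 8.28 (tumour 4) and 7.69 (tumour 6). Dll4, the ligand of sprouting vessels, reached 7.76 (tumour 4), and the other 7 averaged 6.66 ± 0.25 (SD, n = 7).

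Dner, a neuronal protein with Delta-like repeats, reached 9.70 (tumour 8), and the other 7 averaged 7.47 ± 0.53 (SD, n = 7). Dtx1, a Deltex ubiquitin ligase, was lowest in tumour 1 (6.87) and highest in tumour 8 (9.37). The co-repressors Tle3 and Tle4 had opposite extremes: Tle3 was highest in tumour 6 (9.44) and lowest in tumour 8 (7.18), and Tle4 was lowest in tumour 6 (8.56) and highest in tumour 8 (10.52). In the lists with no gene past the limit of 0.41, the largest SDs among genes above background were those of Adam17, a protease that can cut Notch (0.36), Neurl1b, a ubiquitin ligase for ligands (0.31), and Neurog2, a proneural factor (0.28). For Neurog2 the highest tumour was tumour 4 at 6.92, with tumour 3 at 6.88.

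Endothelial and glial markers also had their highest means in tumour 4. Of the 10 endothelial markers 8 were above background (Tek and Cldn5 were not), 7 of these had their highest level in tumour 4, and their centred mean was 0.79 there and between -0.67 and 0.36 elsewhere. Of 9 mural markers 8 were above background (Kcnj8 was not), with a centred mean between -0.59 in tumour 1 and 0.31 in tumour 8, and tumour 4 at 0.15. The 6 detected glial and crest progenitor markers had 5 of their highest levels in tumour 4 and 1 in tumour 6, and S100b and Ngfr were not above background. Tumour 1 was lowest for 8 of 8 detected endothelial, 7 of 8 macrophage and 4 of 8 mural markers, but for 1 of 7 fibroblast markers. Its centred means for these lists were -0.67, -0.61, -0.59 and -0.37. The part of these markers in the levels of Notch1, Jag1, Hey2 and the other genes was not tested. T cell markers were below the threshold in 4 of 4 measured genes.

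**Figure D4:**
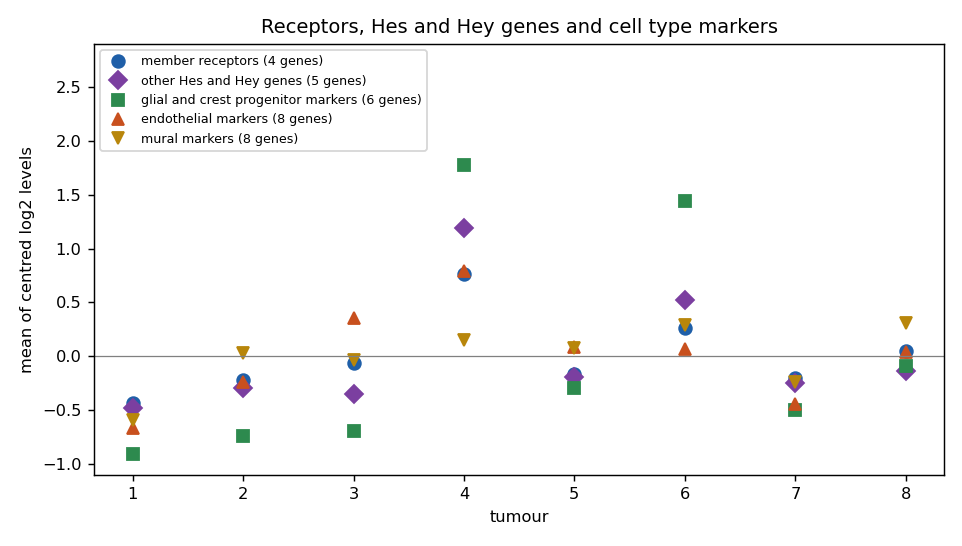
Mean of centred log2 levels (y axis) of the detected genes of 5 lists in tumours 1 to 8 (x axis). In tumour 4 the receptors (0.76), the other Hes and Hey genes (1.19), the endothelial markers (0.79) and the glial and crest progenitor markers (1.78) have their highest points, and the mural markers have theirs in tumour 8 (0.31).

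Whether members differed between tumours together was tested over pairs. For the 8 detected members, 28 pairs were computed, with Pearson's r, Spearman's rho and exact permutation of the pairings, two-sided. A tumour set apart by a gap of over 50% of the range was left out of the pair, which left 8 tumours in 15 pairs, 7 in 12 and 6 in 1. After Benjamini-Hochberg adjustment 0 of the 28 lay under the threshold of 0.05, with the closest exactly at it, and before adjustment 6 did. The 7 pairs with Hes5 used its chosen probe set. For Jag2 with Hes5 the r was -0.37 with that probe set, without tumour 3 (n = 7, exact permutation p = 0.412, adjusted p = 0.495, rho -0.18, p = 0.713). With the other probe set, without tumour 4, it was 0.86 (n = 7, exact permutation p = 0.00694, adjusted p = 0.0833, rho 0.86, p = 0.0238), the lowest p of its 7 pairs. These r values thus come from different sets of tumours as well as different probe sets. Without the 2 tumours farthest in Jag2 they were -0.86 and 0.58.

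Notch1 and Jag1 were closest. Over the 7 tumours other than tumour 4, r was 0.97 (exact permutation p = 0.00179, adjusted p = 0.05) and rho 0.86 (p = 0.0238, adjusted p = 0.222), and r was 0.83 once the 2 tumours with the most extreme Notch1 levels were dropped. That pair passed after quantile normalization was repeated (r = 0.95, exact permutation, adjusted p = 0.0167) and after arrays were centred on their medians (r = 0.97, adjusted p = 0.0333). Tumour 4 departed from this line, with Notch1 at its highest and Jag1 at 7.48, near its median of 7.38.

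Notch1 and Notch2 had an r of 0.89 over the same 7 tumours (exact permutation p = 0.00893, adjusted p = 0.125; rho 0.86, p = 0.0238; r = 0.87 without the 2 farthest tumours). For Dll1 and Jag2 the r was 0.75 over 8 tumours (exact permutation p = 0.0250, adjusted p = 0.203; rho 0.38, p = 0.360), and it was 0.04 without the 2 farthest tumours, 6 and 4, so it rested on them.

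Of 32 relations between members and Nrarp, Hey1, Heyl or Hes6, 0 passed after Benjamini-Hochberg adjustment (exact permutation, lowest adjusted p = 0.0825), though 11 lay under 0.05 before it. Notch1 and Heyl had an r of 0.93 over 7 tumours (exact permutation p = 0.00357, adjusted p = 0.0825; rho 0.96, p = 0.00278), which was 0.58 without the 2 farthest tumours. Dll1 ran opposite to Nrarp (r = -0.90, n = 8, exact permutation p = 0.00925, adjusted p = 0.0825; rho -0.83, p = 0.0154) and to Hey1 (r = -0.86, exact permutation p = 0.0125, adjusted p = 0.0825; rho -0.81, p = 0.0218), with r of -0.65 and -0.85 without the 2 farthest tumours. Notch4 and Hey1 had an r of 0.82 (exact permutation p = 0.0137, adjusted p = 0.0825; rho 0.76, p = 0.0368; r = 0.55 without the 2 farthest).

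**Figure D5:**
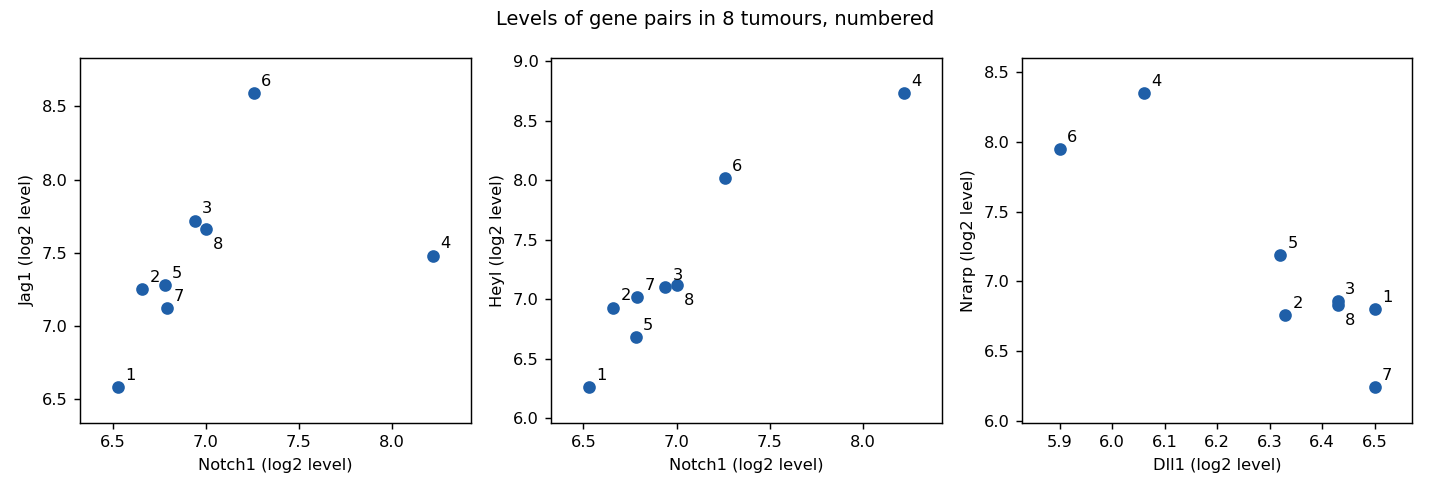
Log2 levels of Notch1 against Jag1, Notch1 against Heyl and Dll1 against Nrarp, 1 point per tumour, numbered. In the first panel 7 tumours lie along a line (r = 0.97) and tumour 4 lies off it, in the second tumour 4 continues the order of the others, and in the third tumours 4 and 6 have low Dll1 and high Nrarp.

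Of 48 relations with cell type markers, 47 could be computed and 0 passed (exact permutation, smallest adjusted p = 0.352), though 5 lay under 0.05 before adjustment. The relations with glial and crest progenitor markers left out tumours 4 and 6, which stand apart in those markers, so they say nothing of the high values there. The nearest were Jag1 with mural markers (r = 0.80, n = 8, exact permutation p = 0.0222, rho 0.71, p = 0.0576, r = 0.59 without the 2 farthest tumours), Notch4 with endothelial markers (r = 0.74, p = 0.0374, rho 0.74, p = 0.0458, r = 0.26) and Notch3 with mural markers (r = 0.74, p = 0.0397, rho 0.74, p = 0.0458, r = 0.57), each with an adjusted p of 0.352. Also under 0.05 before adjustment, with the same adjusted p, were Notch1 with mural markers and Jag1 with macrophage markers. Their r was 0.78 (n = 7, exact permutation p = 0.0407, rho 0.68, p = 0.11, r = 0.43 without the 2 farthest) and 0.72 (n = 8, p = 0.0421, rho 0.64, p = 0.0962, r = 0.51).

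The genes whose pattern was most like each varying member were taken as the 3 with the highest r over the 8 tumours among 1858 other genes above background with an SD above 0.41, as a description with no test. For Notch1 these were P2rx7 (0.988), Abhd4 (0.980) and Antxr1 (0.974), which share its high value in tumour 4. For Notch2 they were Cib1 (0.951), Frmd6 (0.951) and Egr1 (0.950), for Notch3 Chrna3 (0.929), Atp1b1 (0.915) and Efnb2 (0.903), and for Jag1 Galnt10 (0.937), St3gal4 (0.931) and Tnnc2 (0.930).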

How the data were processed

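Total RNA extracted with Trizol was biotin-labelled and hybridised to Affymetrix arrays, 1 per tumour. The deposited values are log2 levels per probe set, made by the authors with RMA and Partek 6.5, per the submitters' processing notes; options were not given in the sources used here. RMA quantile normalizes arrays, which can hide a shift shared by most genes. Of 41345 probe sets 23521 carry 1 gene symbol in the platform annotation, and 1814 with several were not used to name a gene. The number of arrays limits the precision. Array medians lay between 5.63 and 5.75.

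Levels minus the array background were tested over all 22180 genes with limma 3.58.1 in R 4.3.3 (trend and robust prior, Benjamini-Hochberg adjustment). Relations used exact permutation of 40320 pairings for 8 tumours, adjusted within each of 3 families. The scripts, in Python 3.11.15, were tested on simulated data. The gene names printed follow a rule written with the lists: the members, genes past the SD limit (at most 3 a list, at least the one with the largest SD) and the 3 most similar genes. Hes6 and the markers, promoters and undetected genes named were chosen after their values were seen. The members and lists were chosen with earlier results of these data known. Alternatives were other background levels, the mean of probe sets, repeated normalization, no trend or robust prior, and leaving out tumours.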

Additional observations from a re-analysis of the deposited data

Results flagged for a closer look

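In 26 sets of 8 levels (the 10 members, the second probe sets of Dll1 and Hes5, and 14 other pathway genes) 1 tumour stood far from the rest in 6, by a gap of more than 0.526 of the whole range. For normally distributed values chance flags about 1 in 20 sets. This rate does not apply to the 14 pathway genes, most of which were named for a large SD. The share of all genes with such a gap was not counted, so whether 6 is many for these arrays is not known. Of the 6, 3 were among the members and second probe sets and 3 among those genes. Notch1 was at 8.22 in tumour 4 (gap 0.566 of the range), Dll4 at 7.76 in tumour 4 (0.543) and the other probe set of Hes5 at 7.62 in tumour 4 (0.576). Dll3 was at 6.39 in tumour 6 (0.666), the only tumour in which it exceeded the background of its array. Dner was at 9.70 in tumour 8 (0.553) and Neurl1b at 7.91 in the same tumour (0.529).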

How the results depend on the processing

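No paired analysis was possible because the labels give a single group. The number of members above background was 5 with the background at the 99th percentile and 8 to 9 when 1 tumour was left out, and that of other pathway genes 47 at the 99th percentile, 59 at the 90th and 54 to 55 when 1 tumour was left out. At the 99th percentile Dll1 and Hes5 lay below background (-0.28 and -0.14), as did Neurog2 (-0.10), while Notch2 (0.04), Dll4 (0.20), Mfng (0.91) and Hey2 (0.34) were no longer called, and at the 90th Dll3 lay above it (0.50). The number of members past the SD limit was 2 to 4 when 1 tumour was left out (2 without tumour 4) and 0 without tumours 4 and 6, a choice made after seeing the data, like the other probe set of Hes5, which gave 5. Among pairs of members, 1 passed with quantile normalization repeated, 1 with arrays centred on the median and 0 to 2 when 1 tumour was left out (2 without tumour 4, 1 without tumour 6). Among relations with other pathway genes, 0 to 2 passed when 1 tumour was left out (2 without tumour 5). The r of Notch2 with Dll1 was -0.71 in the main setting (n = 8, exact permutation p = 0.0481, adjusted p = 0.224, rho -0.4). It was 0.58 over 6 tumours when tumour 4 or tumour 6 was left out, since the other of the pair then stood apart and was dropped too. It ranged from -0.81 to -0.68 when any of the others was left out. The r of Dll1 with Jag1 was -0.73 in the main setting (n = 8, exact permutation p = 0.0363, adjusted p = 0.203, rho -0.62). With probe sets averaged, which takes in the uncertain second probe set of Dll1, it was 0.20 over 7 tumours. The relations with cell type markers had 0 passing under the alternatives run. Hey2 was no longer called above background without tumour 6 (1.17, limma adjusted p = 0.052). The cause of these changes was not tested. With 8 tumours and 1 array each, small relations and levels near the background are beyond the precision of the arrays.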
